A study of Mus musculus with 20 samples.

Results

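The 10 immediate early transcription factors Fos, Fosb, Fosl2, Junb, Egr1, Egr2, Egr3, Egr4, Npas4 and Nr4a1 were followed in the hippocampus of mice that differed in age and housing. The set is given by gene symbol, with no threshold on a measured value, though it was drawn up with earlier results of these data known. It makes up 10 of the 47729 gene identifiers in the count table. All 10 passed the filter on low counts, which left 16692 genes to test. RNA was sequenced from hippocampi of male C57BL/6 mice in 20 libraries, 5 in each of 4 groups. At 24 months the mice lived in an enriched environment (24mEE) or in standard cages (24mSC), and at 5 months likewise in enriched (5mEE) or standard cages (5mSC). The labels name no altered gene and no drug in any group. Enrichment meant larger cages with running wheels, climbing platforms, tunnels and nesting material that were rearranged every week. Old enriched mice moved into such cages only for their last months, whereas the enrichment of 5mEE mice is not described in the study's methods. Mice were killed by cervical dislocation, and RNA was taken from each animal on its own. The study's methods describe mice kept in more than 1 run. The labels name no run, so whether these 20 libraries come from several runs is not given. The time of day and the last activity of each mouse before death are not given in the sources used here.

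Immediate early genes are transcribed within minutes of a stimulus, without any need for new protein, and their mRNAs are short-lived. In neurons, calcium entry through synaptic receptors and channels activates the transcription factors SRF with its ternary complex partners, CREB and MEF2, which already sit at these genes. The FOS and JUN proteins pair to form AP-1, the EGR proteins are zinc finger factors, NPAS4 is a basic helix-loop-helix PAS factor and NR4A1 is an orphan nuclear receptor. In the hippocampus these mRNAs are widely used as markers of recently active neurons, and several are needed for long-lasting memory.

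Library totals ran from 10.96 to 34.11 M counts (M, mega). Levels are given as CPM (counts scaled to a common library size, with TMM factors), and log2 fold changes come with the standard error (SE) of edgeR's quasi-likelihood fit over all 20 libraries. A gene was called at an adjusted p under 0.05 (Benjamini-Hochberg over all genes tested). All 8 dentate gyrus, 5 CA1 and 5 CA3 markers were detected in every library. Replicate 3 of 5mSC stood apart. Mitochondrial ribosomal RNA took 26.8% of its counts, against 0.883 to 1.82% in the other 19 libraries. Its neuron markers had a mean log2 CPM of 8.87 (9.62 to 9.92 in the others) and its choroid plexus markers one of 3.90 (1.01 to 2.82 in the others). The biological coefficient of variation was 17.4% over 20 libraries, 11.3% without 5mSC replicate 3, 16.4% without 5mSC replicate 1 and 9.88% without both. Replicate 1 was within the range of the other libraries in these markers, and its omission together with replicate 3 was taken over from earlier work on these data. Values without both libraries are given beside the results.

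Levels of the members relative to each other were compared as CPM per kilobase of annotated exon, averaged over the 20 libraries. Egr1 had the highest level at 31.5 ± 12.9 CPM per kilobase (SD, n = 20), followed by Nr4a1 at 20.5 ± 8.79 and Junb at 18.4 ± 7.73. Egr4, Egr3, Fosl2 and Fos lay close together, between 7.22 and 10.3 CPM per kilobase. Egr4 and Egr3 differed by less than the SD of either, and so did Fosl2 and Fos. Npas4 had 3.29 ± 1.33, Fosb 2.61 ± 0.883 and Egr2 0.982 ± 0.946 CPM per kilobase. With the length of the longest transcript in place of all exons, Fosl2 came before Egr3 and Egr4, and Fosb before Npas4. The order also depended on the group: in 24mSC Junb (16.4 CPM per kilobase) lay above Nr4a1 (15.6), and in 5mSC Fos (11.8) lay above Fosl2 (8.86).

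Fos (ENSMUSG00000021250; GRCm38 chromosome 12, 85473890 to 85477273, plus strand) encodes the best known AP-1 subunit. In replicates 1 to 5 of each group it had 17.7, 29.8, 7.93, 6.96 and 7.60 CPM in 24mEE, 10.3, 12.5, 12.2, 22.8 and 13.2 CPM in 24mSC, 14.4, 21.9, 8.43, 7.84 and 7.49 CPM in 5mEE, and 37.9, 54.1, 13.6, 18.7 and 14.3 CPM in 5mSC. The highest values were those of 5mSC replicates 2 and 1, while the other 5mSC libraries lay within the range of the 24mEE libraries. Fosb (ENSMUSG00000003545; chromosome 7, 19302696 to 19310051, minus strand) encodes an AP-1 subunit whose truncated form, known as ΔFosB, builds up under repeated stimulation. Counts per gene do not separate the forms. Fosb had 18.1, 17.03, 14.64, 14.7 and 14.8 CPM in 24mEE, 11.2, 11, 12.5, 14.63 and 12.8 CPM in 24mSC, 16.2, 20.5, 15.8, 13.2 and 11.4 CPM in 5mEE, and 27.2, 31.8, 9.53, 21.4 and 17.4 CPM in 5mSC. All 24mEE libraries lay just above all 24mSC libraries, and 5mSC replicate 3 was the lowest library of the series while the other 4 of its group lay above every 24mSC library.

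Fosl2 (ENSMUSG00000029135; chromosome 5, 32135801 to 32157842, plus strand), the gene of the FOS-related antigen FRA-2, varied least within this family. It ranged from 56.6 to 81.9 CPM in 24mEE, 64.1 to 76.2 CPM in 24mSC, 53.3 to 94.8 CPM in 5mEE and 69.2 to 119.9 CPM in 5mSC. Junb (ENSMUSG00000052837; chromosome 8, 84974484 to 84978718, minus strand) encodes a JUN partner of the FOS proteins. Its range was 29.3 to 57.0 CPM in 24mEE, 30.3 to 46.8 CPM in 24mSC, 25.4 to 43.0 CPM in 5mEE and 18.4 to 94.5 CPM in 5mSC, so that both the highest and the lowest library were young mice in standard cages. Of the exons of Junb, 7.52% overlap Prdx2 on the opposite strand, and reads of this stretch cannot be assigned with certainty because the libraries do not mark the strand. The other 9 members overlap no annotated exon of another gene.

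Among the EGR factors, Egr1 (ENSMUSG00000038418; chromosome 18, 34859823 to 34864984, plus strand), also known as Zif268 and long used as a marker of synaptic plasticity, ranged from 91.0 to 207 CPM in 24mEE, 94.1 to 183 CPM in 24mSC, 87.0 to 169.8 CPM in 5mEE and 88.4 to 309 CPM in 5mSC. The lowest libraries of the 4 groups lay close together, but that of 5mSC was replicate 3, without which the lowest was 118 CPM. The medians were 103 CPM in 24mEE, 139 CPM in 24mSC, 105 CPM in 5mEE and 159 CPM in 5mSC. Egr2 (ENSMUSG00000037868; chromosome 10, 67535475 to 67542188, plus strand), also known as Krox20, is known for its part in hindbrain patterning and in Schwann cell myelination and is induced by strong synaptic stimulation. It had 5.36, 6.49, 0.906, 0.753 and 1.15 CPM in 24mEE, 2.14, 1.71, 2.04, 2.75 and 1.39 CPM in 24mSC, 3.56, 4.90, 1.05, 1.15 and 0.949 CPM in 5mEE, and 10.8, 11.8, 0.657, 4.33 and 2.82 CPM in 5mSC. Of all members Egr2 had the widest spread: its highest library was 17.98 times its lowest over the series, and in both enriched groups replicates 1 and 2 stood clear of replicates 3 to 5.

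Egr3 (ENSMUSG00000033730; chromosome 14, 70077203 to 70082614, plus strand), an EGR factor known for its part in muscle spindle development as well as in plasticity, was the most even member outside 5mSC. In replicates 1 to 5 its levels were 43.8, 49.3, 46.2, 45.7 and 41.6 CPM in 24mEE, 37.9, 36.6, 39.0, 41.4 and 36.9 CPM in 24mSC, 46.1, 44.9, 41.3, 43.8 and 44.5 CPM in 5mEE, and 40.0, 55.0, 16.9, 59.5 and 50.9 CPM in 5mSC. Every 24mEE library lay above every 24mSC library. Outside 5mSC, the highest library of a group was at most 1.19 times the lowest. Within 5mSC the replicate rich in mitochondrial ribosomal RNA was the lowest library of the series, and replicate 1 was the next lowest of its group. Egr4 (ENSMUSG00000071341; chromosome 6, 85511121 to 85513589, minus strand), known for its part in male fertility, ranged from 15.7 to 28.2 CPM in 24mEE, 16.6 to 22.02 CPM in 24mSC, 11.9 to 25.3 CPM in 5mEE and 10.2 to 54.0 CPM in 5mSC.

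Npas4 (ENSMUSG00000045903; chromosome 19, 4984355 to 4990316, minus strand) responds selectively to calcium entry in neurons and acts on the balance of excitatory and inhibitory synapses. Its levels were 15, 17.7, 10.8, 7.66 and 11.3 CPM in 24mEE, 8.51, 8.78, 11.4, 18.1 and 14.3 CPM in 24mSC, 9.88, 13.2, 7.93, 11.7 and 10.4 CPM in 5mEE, and 23.9, 29.98, 13.4, 13.6 and 14.6 CPM in 5mSC. All 5mEE libraries lay below all 5mSC libraries, with the highest of 5mEE at 13.23 CPM and the lowest of 5mSC at 13.37 CPM. Nr4a1 (ENSMUSG00000023034; chromosome 15, 101254269 to 101274795, plus strand), also known as Nur77, is induced in neurons and in many other cells. It had 83.7, 106, 56.3, 45.5 and 44.6 CPM in 24mEE, 48.3, 57.8, 54.5, 72.3 and 41.0 CPM in 24mSC, 54.1, 86.6, 52.3, 51.4 and 63.5 CPM in 5mEE, and 142, 148, 58.0, 98.5 and 77.1 CPM in 5mSC. Apart from replicate 3, the 5mSC libraries lay above every 24mSC library.

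**Figure D1:**
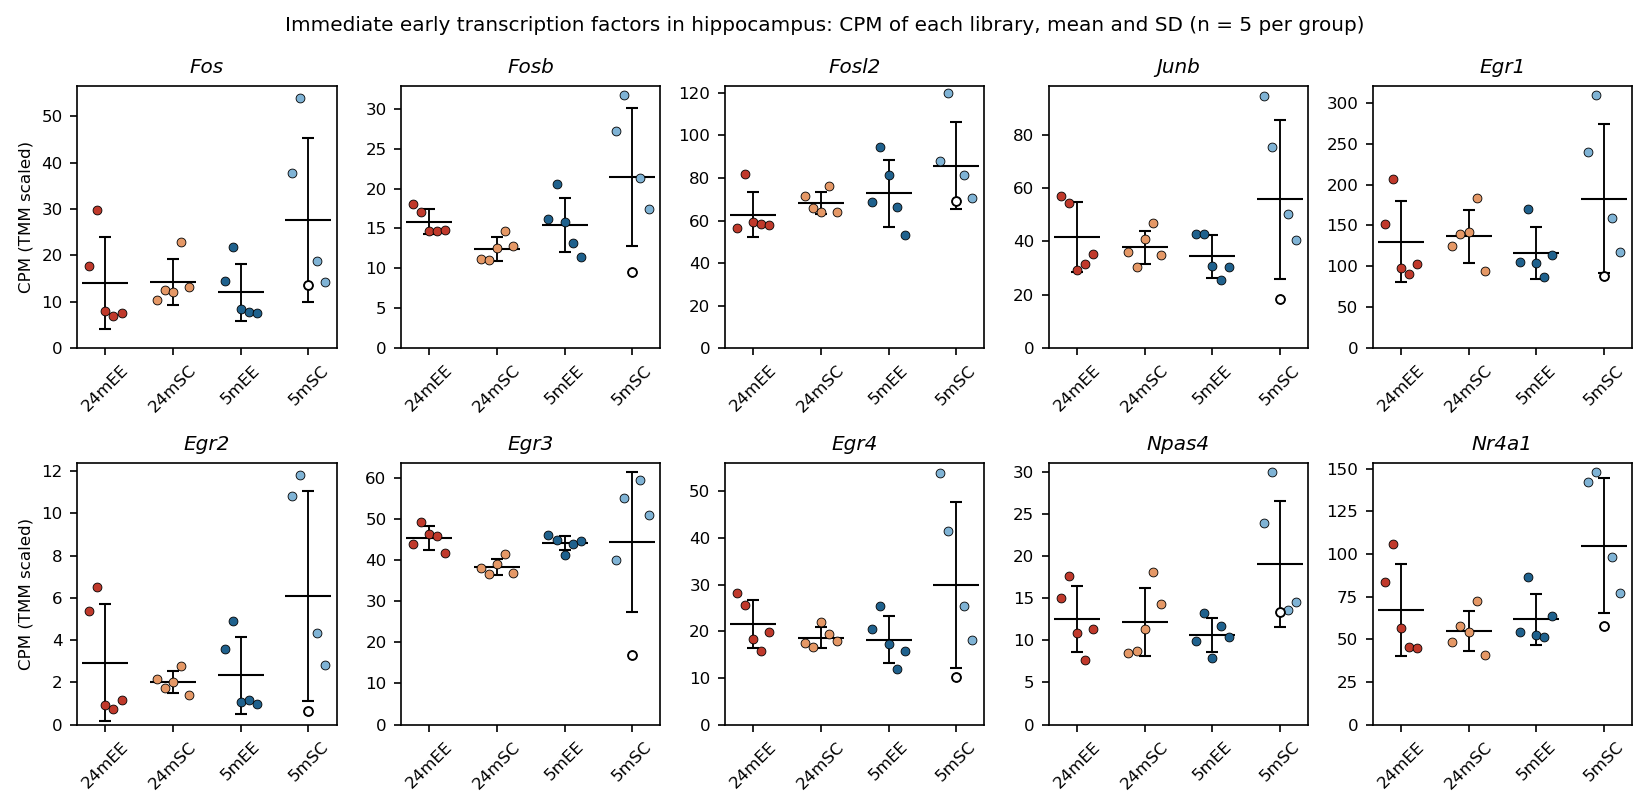
Each panel shows 1 gene, with CPM on the TMM scale on a linear axis from 0 and 1 point per library; the black dash and bar are the group mean and SD (n = 5), and the open circle is 5mSC replicate 3. In all 10 panels 5mSC has the largest SD, with the open circle the lowest of its group, and for Egr3 every 24mEE point (41.6 to 49.3 CPM) lies above every 24mSC point (36.6 to 41.4 CPM).

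In 9 of the 10 members the highest group mean was that of 5mSC, and for Egr3 it was that of 24mEE. Without 5mSC replicate 3 the mean of Egr3 in 5mSC was 51.3 CPM, above the 45.3 CPM of 24mEE. The lowest mean was found in 5mEE for 5 members (Fos, Junb, Egr1, Egr4 and Npas4), in 24mSC for 4 (Fosb, Egr2, Egr3 and Nr4a1) and in 24mEE for Fosl2. When the 4 groups of a member were ordered by their means, the ranges of all 3 neighbouring pairs overlapped in every member. In bulk tissue, fewer cells that express a gene and less mRNA per cell cannot be told apart.

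The comparison of 24mSC with 5mSC addressed age in standard cages. All 10 members had a lower mean in 24mSC, but no member was called by edgeR at an adjusted p under 0.05, a rule that called 0.803% of all genes tested. At an unadjusted p under 0.05 there were 7 members, all lower; this limit was passed by 20.5% of all genes, and by 11.7% in the lower direction. The median log2 fold change of the members was −0.67, against −0.01 over all genes. Nr4a1 averaged 54.8 ± 11.7 CPM in 24mSC against 105 ± 39.6 CPM in 5mSC (± SD over 5 libraries each), and the log2 fold change was −0.94 ± 0.26 (SE; adjusted p = 0.0720). For Fosb the means were 12.4 ± 1.47 CPM in 24mSC and 21.5 ± 8.63 CPM in 5mSC, a log2 fold change of −0.80 ± 0.21 (adjusted p = 0.0620). Egr2 had the largest log2 fold change and the largest error, −1.62 ± 0.66 (adjusted p = 0.176), and Egr3 the smallest, −0.23 ± 0.19 (adjusted p = 0.512). Fos had −0.97 ± 0.44 and Npas4 −0.65 ± 0.25, with adjusted p values of 0.216 and 0.166.

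The number of members called with age depended on the 5mSC libraries and on the tool. Without 5mSC replicate 3, 4 members were called and all 4 were lower in 24mSC, where the same fit called 3.58% of all genes. They were Fosb (log2 fold change −0.97 ± 0.16, adjusted p = 0.00317), Egr3 (−0.43 ± 0.08, adjusted p = 0.00837), Nr4a1 (−1.10 ± 0.24, adjusted p = 0.0188) and Egr4 (−0.90 ± 0.25, adjusted p = 0.0473). Without 5mSC replicates 1 and 3, Fosb (−0.91 ± 0.17, adjusted p = 0.0120) and Egr3 (−0.53 ± 0.06, adjusted p = 0.000201) were called, against 2.14% of all genes. For Egr3 the 3 remaining 5mSC libraries had 50.9, 55.0 and 59.5 CPM, all above the 36.6 to 41.4 CPM of 24mSC. The omitted replicate 1 had 40.0 CPM, within the 24mSC range, so this separation follows from its omission together with that of replicate 3. Over all 20 libraries, the DESeq2 Wald test called Fosb and Nr4a1, and limma-voom with sample quality weights called Fosb, Egr3 and Nr4a1; DESeq2 called 4% and limma-voom 1.83% of all genes they adjusted. Leaving out any other single library of the 2 groups left no member called by edgeR.

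The comparison of 24mEE with 24mSC addressed enrichment in old mice. It shares the 24mSC libraries with the comparison of age. The fitted level was higher in 24mEE for 7 members and lower for 3 (Fos, Fosl2 and Egr1), and the median log2 fold change was 0.17, against −0.00 over all genes. No member was called by edgeR, by DESeq2 or by limma-voom. edgeR called 0% of all genes, and its unadjusted p was under 0.05 in 0 members and in 6.21% of all genes. The unadjusted p was under 0.05 in 0 members by DESeq2 and in 2 by limma-voom. This held for 3.39% of the 33766 genes that DESeq2 tested without the filter on low counts. For limma-voom it held for 16.1% of the 16692 filtered genes. For 2 members the ranges of the groups did not overlap, with every 24mEE library the higher, which held for 1.5% of all genes. Egr3 averaged 45.3 ± 2.87 CPM in 24mEE against 38.4 ± 1.92 CPM in 24mSC (± SD over 5 libraries each), and the log2 fold change was 0.24 ± 0.19 (SE; adjusted p = 0.9995). The error in this fit is set by the spread within all 4 groups: without 5mSC replicates 1 and 3 the log2 fold change of Egr3 was 0.24 ± 0.05 (adjusted p = 0.0673). Without 5mSC replicate 3 alone it was 0.24 ± 0.08 (adjusted p = 0.201). Fosb averaged 15.8 ± 1.61 CPM in 24mEE and 12.4 ± 1.47 CPM in 24mSC, a log2 fold change of 0.35 ± 0.21 (adjusted p = 0.947). It was 0.36 ± 0.15 both without 5mSC replicates 1 and 3 (adjusted p = 0.2995) and without replicate 3 alone (adjusted p = 0.382). The log2 fold change of Fos was −0.01 ± 0.44 and that of Npas4 0.04 ± 0.26, errors that leave room for a difference in either direction.

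The comparison of 5mEE with 5mSC addressed enrichment in young mice. It shares the 5mSC libraries with the comparison of age above. All 10 members had a fitted log2 fold change below 0, with a median of −0.72 against −0.02 over all genes. edgeR called no member and 0% of all genes, and neither DESeq2 nor limma-voom called a member. The unadjusted p of edgeR was under 0.05 for 8 members, all lower, against 16.5% of all genes and 10% in the lower direction. By the same limit DESeq2 counted 8 members and limma-voom 9. In either direction the limit was passed by 10.6% of the 33766 genes that DESeq2 tested without the filter on low counts. For limma-voom the share was 5.49% of the 16692 filtered genes. Npas4 averaged 10.6 ± 1.99 CPM in 5mEE against 19.1 ± 7.50 CPM in 5mSC (± SD over 5 libraries each), and the log2 fold change was −0.85 ± 0.25 (SE; adjusted p = 0.223). It was the only member whose ranges did not overlap, and 0.875% of all genes were lower in the same way. For Nr4a1 the means were 61.6 ± 14.8 CPM in 5mEE and 105 ± 39.6 CPM in 5mSC, a log2 fold change of −0.77 ± 0.26 (adjusted p = 0.223). Fos (−1.21 ± 0.44, adjusted p = 0.226) and Egr2 (−1.41 ± 0.64, adjusted p = 0.282) had the largest log2 fold changes, while that of Egr3 was −0.02 ± 0.19 (adjusted p = 0.963). Without 5mSC replicates 1 and 3 no member was called in this comparison, and the log2 fold change of Egr3 was −0.32 ± 0.06 (adjusted p = 0.181). Without 5mSC replicate 3 alone it was −0.22 ± 0.08 (adjusted p = 0.333).

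In the comparison of 24mEE with 5mEE, age in enriched mice, no member was called by edgeR, DESeq2 or limma-voom, and 0 members had an unadjusted p under 0.05 in any of them. By edgeR 0.108% of all genes were called and 4.61% had an unadjusted p under 0.05. The log2 fold changes of the members lay between −0.21 (Fosl2, SE 0.15) and 0.35 (Egr2, SE 0.65), with 9 of 10 above 0. Egr3 averaged 45.3 ± 2.87 CPM in 24mEE and 44.1 ± 1.79 CPM in 5mEE (SD, 5 libraries each), a log2 fold change of 0.04 ± 0.19.

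Whether enrichment acted differently at the 2 ages was asked with the interaction, the log2 fold change of 24mEE against 24mSC minus that of 5mEE against 5mSC. It was above 0 in all 10 members, with a median of 0.87 against 0.01 over all genes. The 5mSC mean enters the interaction with a plus sign. High 5mSC levels therefore raise it, and they also lower the fold changes of 24mSC and of 5mEE against 5mSC. Members varied together across libraries, so their signs are not independent results. edgeR called no member and 0% of all genes, and DESeq2 and limma-voom called no member. At an unadjusted p under 0.05 there were 5 members by edgeR (Nr4a1, Fosb, Npas4, Egr4 and Egr2), 5 by DESeq2 and 6 by limma-voom. In either direction the same limit was passed by 4.77% of the 33766 genes that DESeq2 tested without the filter on low counts. For limma-voom the share was 9.54% of the 16692 filtered genes. Of all genes 8% passed this limit in edgeR, and 4.4% did so with a value above 0. The value was 1.07 ± 0.36 for Nr4a1 and 0.85 ± 0.29 for Fosb (SE, adjusted p = 0.621 for both). For Egr3 it was 0.27 ± 0.26 over 20 libraries (adjusted p = 0.775). Without 5mSC replicates 1 and 3 it was 0.57 ± 0.08, and Egr3 was then the single gene of 16947 to be called (0.0059% of all genes, adjusted p = 0.0194). Leaving out either of these libraries alone, or any other single library, left no member called.

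**Figure D2:**
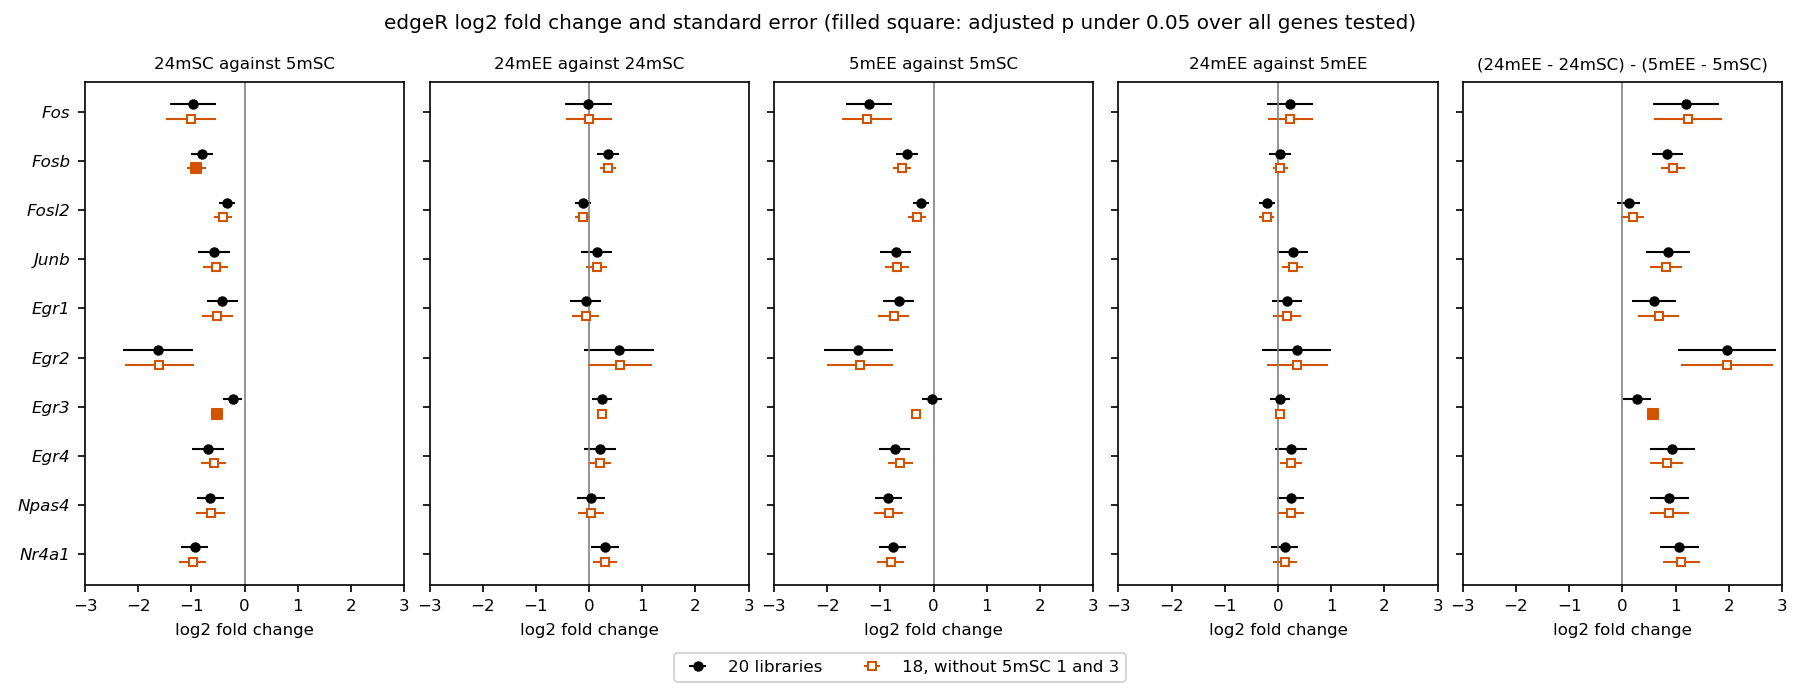
Panels give the log2 fold change (horizontal axis) of each member in the 5 comparisons, with bars of 1 SE from edgeR; circles are fits of 20 libraries, squares fits of 18 without 5mSC replicates 1 and 3, and filled squares mark an adjusted p under 0.05. All 10 circles lie below 0 for 24mSC against 5mSC and for 5mEE against 5mSC and above 0 for the interaction, and only Fosb and Egr3 have a filled square. The 5mSC libraries are part of each of the comparisons named.

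Within each group the members varied across libraries largely together. With each library set against its group mean on the log2 CPM scale, all 45 pairs of members had a positive Pearson r over the 20 libraries, with a median of 0.752 and a range of 0.265 to 0.966. Over the 18 libraries without 5mSC replicates 1 and 3 the median was 0.747 and again all 45 were positive. These values describe genes measured in the same libraries, which share depth and tissue composition. Egr1 and Nr4a1 were the closest pair (r = 0.966 over 20 libraries and 0.954 over 18). Egr3 stood loosest, with a mean r to the other members of 0.486 over 20 libraries and 0.391 over 18, where Fos had 0.771 and 0.817.

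The same libraries carried the high values of most members. In 24mEE replicate 2 was the highest library for 7 members, in 24mSC replicate 4 for 9, in 5mEE replicate 2 for 9 and in 5mSC replicate 2 for 7. Replicates 1 and 2 were the 2 highest libraries of 24mEE in most members (among the top 2 for 8 and 10 members) and likewise in 5mSC (9 and 10). The labels give no date or run for these libraries. At the low end, 5mSC replicate 3 was the lowest of its group for all 10 members.

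**Figure D3:**
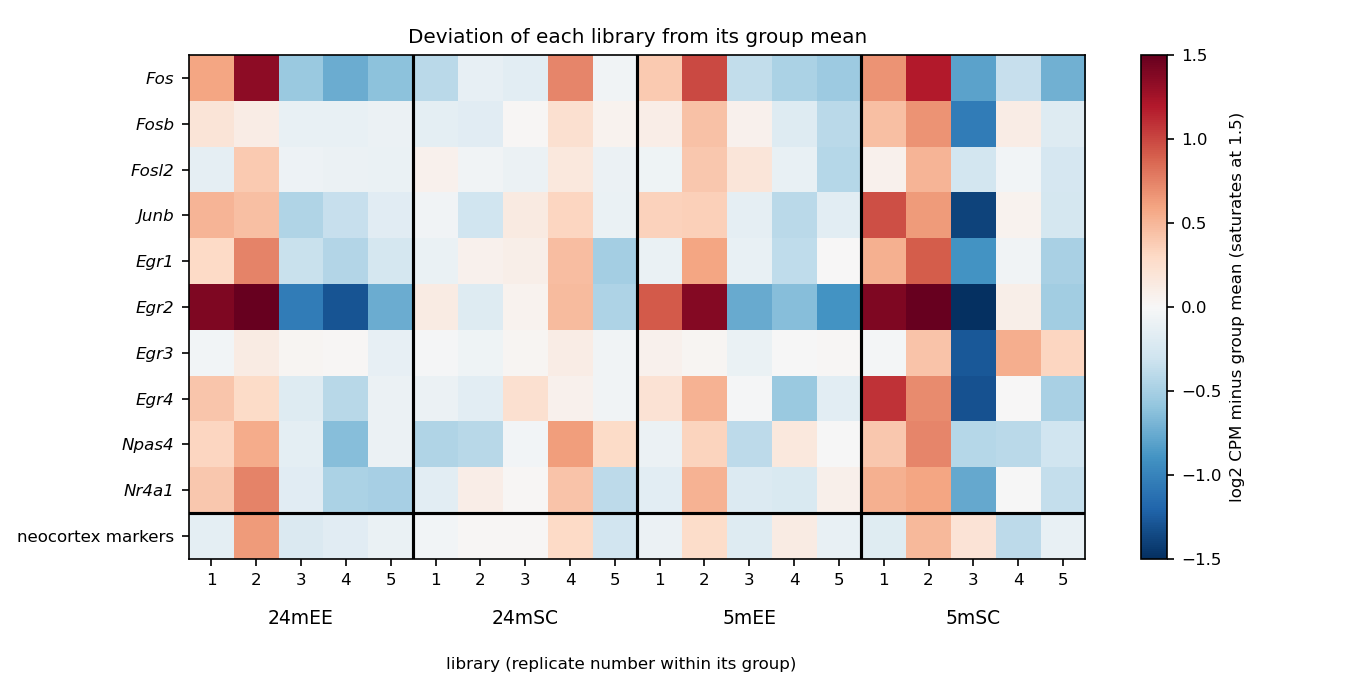
Each cell is the log2 CPM of a member (rows) in a library (columns, by group and replicate number) minus the mean of its group, with the neocortex marker mean in the last row; colours saturate at −1.5 and 1.5. Columns are mostly of 1 colour across the members, with replicate 2 of 24mEE, replicate 4 of 24mSC and replicate 2 of 5mEE and 5mSC high, and 5mSC replicate 3 low.

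Markers of the neocortex, which borders the hippocampus, were high in several of these libraries. All 7 neocortex markers were tested and none was at 0 in any library, with a lowest count of 10. In each group the library with the highest mean log2 CPM of these markers was the one with the most members at their highest: 24mEE replicate 2 (3.95, the others of its group 3.10 to 3.21), 24mSC replicate 4 (4.08, the others 3.48 to 3.79), 5mEE replicate 2 (3.62, the others 3.16 to 3.47) and 5mSC replicate 2 (3.99, the others 3.10 to 3.71). The relation had exceptions: 5mSC replicate 3, lowest in all members, had the next highest marker mean of its group (3.71), and the high members of 24mEE replicate 1 and 5mSC replicate 1 stood beside marker means of 3.17 and 3.32. Group means of the neocortex markers were unequal as well, with 3.32 ± 0.357 in 24mEE and 3.77 ± 0.212 in 24mSC (SD, 5 libraries each). With the neocortex marker mean as a covariate, all 10 members had a log2 fold change above 0 in 24mEE against 24mSC, from 0.12 (Fosl2) to 1.17 (Egr2), with the lowest adjusted p at 0.9985. In 24mSC against 5mSC all 10 stayed below 0, from −0.22 (Egr3) to −2.11 (Egr2). Nr4a1 was called there (−1.19, adjusted p = 0.0323), in a fit that called 76 of the 16692 genes tested. The interaction stayed above 0 for all 10, with the lowest adjusted p at 0.538. With the dentate gyrus marker mean as the covariate instead, all 10 members were also above 0 in 24mEE against 24mSC, from 0.0072 to 0.98. Their median log2 fold change there was 0.28, against 0.39 with the neocortex covariate and 0.17 without a covariate. All 10 were again below 0 in 24mSC against 5mSC, and no member was called (lowest adjusted p 0.0646). The dentate gyrus marker mean was higher in 24mEE (5.795) than in 24mSC (5.381), opposite to the neocortex markers, so these covariates are not independent. The part of either marker set in the shift was not tested.

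**Figure D4:**
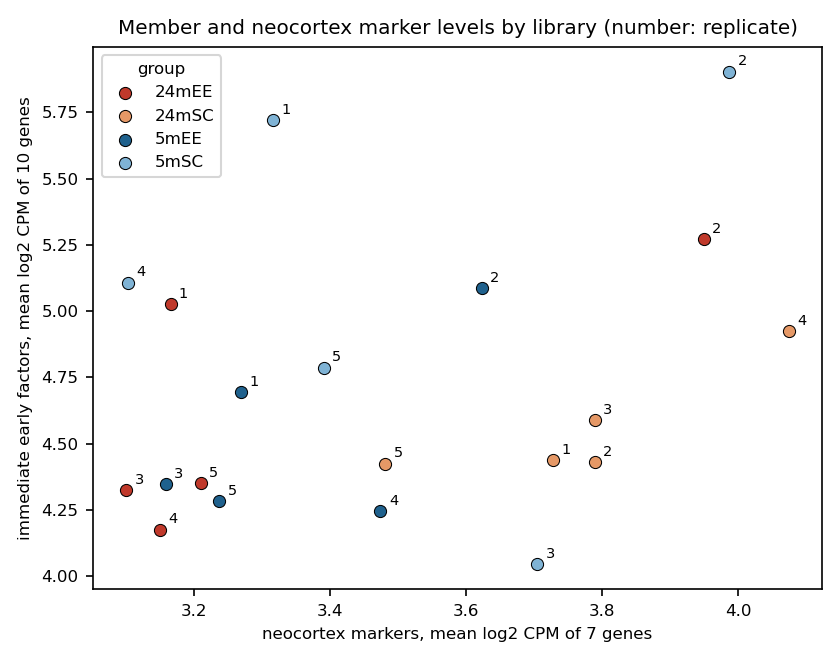
The mean log2 CPM of the 10 members (vertical axis) is plotted against the mean log2 CPM of 7 neocortex markers (horizontal axis), 1 point per library with its replicate number. The rightmost point of each group is 24mEE replicate 2 at 3.95, 24mSC replicate 4 at 4.08, 5mEE replicate 2 at 3.62 and 5mSC replicate 2 at 3.99, and it is also the highest of its group in the members, while 5mSC replicate 1 is high in the members at a marker mean of 3.32.

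The genes outside the members whose deviations from the group means were most like those of the members' mean were ranked over the 18 libraries without 5mSC replicates 1 and 3, among 14456 genes. Ier2, an immediate early regulator, came first (r = 0.946), followed by the clock gene Per1 (0.926), the MAP kinase phosphatase Dusp1 (0.925) and Arc, which encodes a protein of the postsynaptic density (0.918). Frmd6 (0.890), the MAP kinase phosphatase Dusp5 (0.888) and the negative elongation factor subunit gene Nelfb (0.882) were also among the first 8. Of the first 8, 5 belong to the lists of activity-induced genes described below, and 4 were also among the first 8 over all 20 libraries.

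Promoters are shown because the members moved together across libraries and because SRF and CREB, which activate immediate early genes, bind known motifs: the CArG box for SRF and the cyclic AMP response element (CRE) for CREB. Windows of 300 bases, 250 before and 50 after the annotated start, were taken from RefSeq (GRCm38.p6) for 8 members in 12 windows. Egr1 and Egr3 were not searched. Both strands were searched for exact matches to each motif. Sites more than 250 bases before a start lay outside the windows, so a motif not found here may be present further away. The short core of the CRE, TGACG (here called the short CRE site), was found in windows of 7 of the 8 members (all but Fosl2), and 20.8% of 32851 promoters of this length hold it. The full CRE TGACGTCA was found in none of the 12 windows, against 1.79% of all promoters. A CArG box was found in 4 of the 5 windows of Egr2 and in no window of the other 7 members searched, against 1.63% of all promoters; 3 of these windows overlap and share 1 site, so the 4 hold 2 distinct sites. The AP-1 motif TGACTCA (5.2% of all promoters) and the EGR motif GCGTGGGCG (0.612%) were found in none. Of the 4 windows below, that of Egr2 is shown for its CArG box between a pair of short CRE sites, that of Fos as the best known member, that of Npas4 for its pair of short CRE sites close together and that of Nr4a1 for its 4 short CRE sites. Capitals mark the CArG box (10 bases, in Egr2) and the short CRE sites on either strand (5 bases each).
Egr2 (chr10:67537619-67537918, plus strand): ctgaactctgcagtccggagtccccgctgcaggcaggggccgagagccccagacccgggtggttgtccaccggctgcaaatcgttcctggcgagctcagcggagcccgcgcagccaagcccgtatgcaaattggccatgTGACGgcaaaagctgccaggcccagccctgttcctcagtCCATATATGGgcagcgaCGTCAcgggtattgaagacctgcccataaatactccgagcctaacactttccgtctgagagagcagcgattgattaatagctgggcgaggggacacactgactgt
Fos (chr12:85473640-85473939, plus strand): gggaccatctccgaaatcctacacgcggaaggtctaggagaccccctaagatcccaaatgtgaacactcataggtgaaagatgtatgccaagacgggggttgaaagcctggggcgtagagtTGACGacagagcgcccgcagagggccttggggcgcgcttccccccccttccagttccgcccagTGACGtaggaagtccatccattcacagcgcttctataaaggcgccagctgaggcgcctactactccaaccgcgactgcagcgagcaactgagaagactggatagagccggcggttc
Npas4 (chr19:4989922-4990221, minus strand): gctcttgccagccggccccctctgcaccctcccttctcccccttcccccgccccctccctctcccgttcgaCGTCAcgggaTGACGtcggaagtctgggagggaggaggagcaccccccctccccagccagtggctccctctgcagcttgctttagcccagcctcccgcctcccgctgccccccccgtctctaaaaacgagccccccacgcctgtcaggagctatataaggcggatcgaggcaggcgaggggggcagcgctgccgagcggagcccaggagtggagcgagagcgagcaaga
Nr4a1 (chr15:101266596-101266895, plus strand): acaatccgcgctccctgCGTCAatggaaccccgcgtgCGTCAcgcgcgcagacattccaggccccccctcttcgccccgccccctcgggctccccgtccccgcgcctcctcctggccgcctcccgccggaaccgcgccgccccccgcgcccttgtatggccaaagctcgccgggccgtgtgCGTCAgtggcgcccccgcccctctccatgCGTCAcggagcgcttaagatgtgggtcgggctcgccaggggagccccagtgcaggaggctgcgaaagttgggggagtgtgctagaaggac
A match of letters describes the sequence and not the binding of a factor, and binding was not measured in these samples.

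Of the AP-1 relatives Fosl1, Jun, Jund, Batf, Batf2, Batf3, Jdp2 and Atf3, 6 were tested, and no gene was called in any comparison. In 24mSC against 5mSC 3 of them were lower and 3 higher, with a median log2 fold change of 0.01. Atf3, a stress-induced factor that pairs with JUN, averaged 1.32 ± 0.119 CPM in 24mEE, 1.01 ± 0.237 CPM in 24mSC, 1.02 ± 0.305 CPM in 5mEE and 1.73 ± 0.691 CPM in 5mSC, with an interaction of 1.13 ± 0.37 (SE, adjusted p = 0.621). Jdp2, a repressor of AP-1, had a log2 fold change of −0.28 ± 0.13 in 24mSC against 5mSC (adjusted p = 0.2198), and Batf3 one of 0.67 ± 0.27 in 24mEE against 5mEE (adjusted p = 0.862). Of the 4 tested NR4A and EGR relatives and co-repressors none was called. Nr4a3, a receptor of the same family as Nr4a1, had 113 ± 1.07 CPM in 24mSC and 151 ± 47.7 CPM in 5mSC, a log2 fold change of −0.42 ± 0.17 (adjusted p = 0.182). Without 5mSC replicates 1 and 3 it was called (−0.52, adjusted p = 0.0394), in a fit that called 2.14% of all genes. Nr4a2 had −0.35 ± 0.15 both in 5mEE against 5mSC (adjusted p = 0.256) and in 24mEE against 24mSC (adjusted p = 0.672). Nab1, a co-repressor of EGR factors, had 0.16 ± 0.09 in 24mSC against 5mSC (adjusted p = 0.326).

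Of 23 other immediate early transcription regulators, 20 were lower and 3 higher in 24mSC against 5mSC, with a median log2 fold change of −0.27, and only Crem was called. Over all genes 52.0% were lower and 0.803% were called. Crem, which encodes regulators of the CREB family including the induced repressor ICER, fell to 16.96 ± 1.42 CPM in 24mSC, against 23.7 ± 1.85 CPM in 5mSC, a log2 fold change of −0.48 ± 0.08 (adjusted p = 0.00864). The basic leucine zipper gene Nfil3 (−0.73 ± 0.19, adjusted p = 0.0587) and Csrnp1 (−0.63 ± 0.17, adjusted p = 0.0678) were not called. In 5mEE against 5mSC 22 of the 23 were lower, with a median of −0.28 and no call, and in 24mEE against 24mSC 7 were lower, with a median of 0.09 and no call. Of all genes 53.9% and 50.6% were lower in these comparisons, in that order. The 18 tested upstream activators, whose proteins act on immediate early genes when a cell is stimulated, had a median log2 fold change of 0.05 in 24mSC against 5mSC, with 8 lower, 10 higher and no call. Among them were Srf (−0.26 ± 0.07, adjusted p = 0.0772) and Mef2c (0.71 ± 0.22, adjusted p = 0.0921) in that comparison, and Crtc2, a co-activator of CREB, in 5mEE against 5mSC (−0.24 ± 0.07, adjusted p = 0.223). Without 5mSC replicates 1 and 3 Srf was called (−0.31, adjusted p = 0.00887), in a fit that called 2.14% of all genes.

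Genes that are induced downstream of neuronal activity included the other calls with age. Of 19 tested effectors and targets, 13 were lower and 6 higher in 24mSC against 5mSC, and 2 were called, both lower. Of all genes 52.0% were lower and 0.803% were called. Homer1, whose short activity-induced form loosens postsynaptic scaffolds and is not told apart here from the long forms, fell to 152 ± 18.1 CPM in 24mSC, against 249 ± 48.4 CPM in 5mSC (log2 fold change −0.71 ± 0.12, adjusted p = 0.00864). Inhba, which encodes the activin A subunit, fell to 2.34 ± 0.224 CPM in 24mSC, against 5.34 ± 2.43 CPM in 5mSC (−1.20 ± 0.28, adjusted p = 0.0446). Arc had a larger difference and a larger error, −1.40 ± 0.37 (adjusted p = 0.0648). In 24mEE against 24mSC 17 of the 19 were higher, with a median log2 fold change of 0.25 and no call, and 7 had an unadjusted p under 0.05, all higher, against 6.21% of all genes in both directions. Markers of brain regions differed in the same comparison without a call: 8 of 8 dentate gyrus markers (median log2 fold change 0.37) and 4 of 5 CA3 markers (0.40) were higher in 24mEE, while 7 of 7 neocortex markers (−0.44) and 6 of 8 striatum markers (−0.18) were lower. The 5 CA1 markers were mixed, with 3 higher and 2 lower (0.25). The mean log2 CPM of the dentate gyrus markers ranged from 5.67 to 5.90 in 24mEE and from 4.78 to 5.75 in 24mSC, that of the CA3 markers from 3.62 to 3.89 in 24mEE and from 3.41 to 3.65 in 24mSC, and that of the striatum markers from 2.38 to 3.001 in 24mEE and from 3.04 to 3.30 in 24mSC. The part of these markers in the values of the effectors was not tested. Homer1 there had 0.25 (adjusted p = 0.828) and Inhba 0.64 (adjusted p = 0.715).

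Of 17 feedback regulators, which limit the signalling that induces these genes, 14 were lower and 3 higher in 24mSC against 5mSC, with a median log2 fold change of −0.32. Of all genes 52.0% were lower and 0.803% were called. Dusp5 was the only one of the 17 to be called, with 17.3 ± 2.92 CPM in 24mSC and 29.6 ± 7.54 CPM in 5mSC (−0.79 ± 0.16, adjusted p = 0.0256). Errfi1, an inhibitor of EGF receptor signalling (−0.50 ± 0.13), and the stress-induced gene Gadd45b (−0.79 ± 0.20) had adjusted p values of 0.0577 and 0.0587. No gene of these lists was called in the other 4 comparisons. Per1 stands in 2 of the lists. When each of the 10 libraries of 24mSC and 5mSC was left out in turn, Crem and Homer1 stayed called throughout. Dusp5 was not called without 24mSC replicate 1, 2, 3 or 5 (adjusted p of 0.0657 to 0.0813). Inhba was not called without 5mSC replicate 4 or 5 or without any one of the 24mSC replicates (0.0567 to 0.109), nor with the neocortex covariate (adjusted p = 0.0846). Without 5mSC replicates 1 and 3, the calls in 24mSC against 5mSC, all lower, numbered 5 among the effectors (Homer1, Inhba, Arc, Bdnf and Nptx2), 6 among the feedback regulators (with Dusp5, Errfi1 and Gadd45b) and 2 among the other immediate early regulators (Crem and Nfil3). The same fit called 2.14% of all genes. Arc had −1.62 there (adjusted p = 0.0260) and Nfil3 −0.82 (adjusted p = 0.0120). Bdnf and Nptx2 were named after their values were seen.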

How the data were processed

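RNA of 20 mouse hippocampi (5 libraries in each of 4 groups) was sequenced from unstranded single-end libraries. The authors deposited raw counts per gene, for which the submitters' processing notes name featureCounts 1.4.6-p4, the aligner STAR 2.4.1d, bcl2fastq 1.8.2 and the build GRCm38; the deposited RPKM table was not used here. Of 47729 gene identifiers, 47310 (99.1%) matched a symbol. Genes were kept by edgeR's filterByExpr (minimum count 10, minimum total 15), normalised by TMM and tested in one quasi-likelihood fit of all 4 groups (R 4.3.3, edgeR 4.0.16), with Benjamini-Hochberg adjustment over 16692 genes in each of 5 comparisons. The SE was the log2 fold change divided by the root of its F statistic. The log2 CPM used a prior count of 2. Alternatives were DESeq2 1.42.0, limma-voom (limma 3.58.1), other filters, fits of only the compared groups, marker covariates and omission of libraries. The scripts were tested on simulated data. Total counts per library (10.96 to 34.11 M) set the counting error.

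Members, gene lists and tests were chosen with earlier results of these data known. All members were described. Of each other list, up to 3 genes with the smallest p in any of the 5 comparisons were named, and the 8 genes most like the members were ranked by Pearson r; 1 of these 8 is not reported here. RNA was isolated from each sample individually, and p-values measure the spread between these mice. Replicate numbers follow accession order and name libraries only.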

Additional observations from a re-analysis of the deposited data

Results flagged for a closer look

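The 40 groups of 5 libraries (10 members in 4 groups) were searched for a library far from the rest of its group, with the gap to the nearest library divided by the range of the group and compared with a critical value of 0.71. Chance alone gives about 1 such library in 20 groups, and 2 were found. Fosl2 had 81.9 CPM in 24mEE replicate 2, where the nearest library had 59.1 CPM (gap over range 0.9002). Fos had 22.8 CPM in 24mSC replicate 4, where the nearest library had 13.2 CPM (gap over range 0.7694). Both libraries had the highest neocortex marker mean of their group, and the part of this in either value was not tested.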

How the results depend on the processing

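No paired analysis was possible because the replicate numbers follow accession order and pair no samples. Of 440 member log2 fold changes under alternatives that leave out no single library, 424 kept direction and side of the threshold, 9 passed the threshold and 7 changed sign; when single libraries were left out, 573 of 600 kept both, 4 passed the threshold and 23 changed sign. The 7 were in 24mEE against 24mSC: Npas4 (−0.0036 by limma-voom), Fos (0.61 with the neocortex covariate, 0.30 with the dentate gyrus covariate), Fosl2 (0.12 and 0.0072) and Egr1 (0.37 and 0.20). When single libraries were left out, values that changed sign ranged in 24mEE against 24mSC from −0.48 to 0.22 (Fos), −0.29 to 0.0633 (Egr1) and −0.12 to 0.22 (Npas4), in 5mEE against 5mSC from −0.22 to 0.0903 (Egr3), in 24mEE against 5mEE from −0.24 to 0.55 (Fos), −0.0447 to 0.17 (Fosb), −0.0571 to 0.35 (Egr1), −0.16 to 0.79 (Egr2) and −0.0914 to 0.28 (Nr4a1), and for the interaction from −0.0297 to 0.24 (Fosl2). Members called with age in standard cages numbered 0 by edgeR, 2 by DESeq2, 3 by limma-voom, 2 without 5mSC replicates 1 and 3, 1 with the neocortex covariate and 0 to 4 when single libraries were left out; for the interaction, 1 was called without 5mSC replicates 1 and 3. Genes called among all genes in 24mSC against 5mSC were 134 by edgeR, 712 by DESeq2, 306 by limma-voom, 59 without a filter, 3 in a fit of only these groups, 363 without 5mSC replicates 1 and 3, 76 and 81 with the neocortex and dentate gyrus covariates, and 30 to 1127 when single libraries were left out (1127 without 5mSC replicate 2). In 24mEE against 24mSC they were 0 by edgeR, 26 by DESeq2, 379 by limma-voom, 187 in a fit of only these groups, 10 without 5mSC replicates 1 and 3, and 0 to 1 when single libraries were left out. In 5mEE against 5mSC they were 0 by edgeR, 28 by DESeq2, and 0 to 1 when single libraries were left out. In 24mEE against 5mEE they were 18 by edgeR, 35 by DESeq2, 162 by limma-voom, 9 without a filter, 52 in a fit of only these groups, 97 without 5mSC replicates 1 and 3, and 3 to 12 when single libraries were left out. For the interaction they were 0 by edgeR, 2 by DESeq2, 1 without 5mSC replicates 1 and 3, 1 and 2 with the covariates, and 0 to 1 when single libraries were left out. The causes were not tested. Egr2, with the lowest counts of the members, had the largest errors.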
